A study of Mus musculus with 6 samples.

Results

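Transcripts of 9 genes that move calcium and inorganic phosphate across membranes were followed in RAW 264.7 cells, a mouse macrophage-like line, after 3 days of culture on zinc-based metals under a calcium phosphate (CaP) coating. The genes were taken by symbol and form 3 groups by role: the calcium pumps Atp2b1, Atp2a2 and Atp2a3, the store-operated entry genes Stim1, Stim2 and Orai1, and the phosphate transporters Slc20a1, Slc20a2 and Xpr1. All 9 were found among the 54532 genes of the count table, and all 9 were abundant enough to be tested, as were 13156 genes in all. Polyadenylated RNA was sequenced from 6 libraries in 3 groups of 2. The cells grew on CaP Zn0.8Mn0.1Li, a zinc alloy with manganese and lithium, on CaP Zn0.8Mn, with manganese, or on CaP Zn, the zinc without either. All 3 surfaces carried the CaP coating, and the groups used here hold no uncoated alloy and no cells grown away from metal. RAW 264.7 is 1 transformed line, so it stands in for macrophages without the variety of primary cells. Whether the paired libraries of an alloy are separate cultures is not stated in the labels, so the p-values speak for the spread among 6 libraries and that spread may be technical.

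Cells keep cytosolic calcium far below its level outside and inside the endoplasmic reticulum (ER). Plasma membrane calcium ATPases push calcium out of the cell, and sarco/endoplasmic reticulum calcium ATPases (SERCA) pump it into the ER. When that store empties, STIM proteins in the ER membrane cluster and open ORAI channels at the cell surface, and the resulting store-operated entry feeds calcium signals in macrophages and in osteoclast precursors. Phosphate enters by the sodium-coupled transporters PiT-1 and PiT-2 and leaves through XPR1, the phosphate exporter of animal cells. A CaP coating is a store of both ions.

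One library, CaP Zn0.8Mn replicate 1, differed from the rest, and the count of genes called in each comparison is therefore given with and without it. Total counts ran between 14944070 and 17709290 per library, and that library had the lowest. Its mitochondrial share of counts was 7.88%, where the others had 1.82% to 2.15%, and across genes its log2 CPM (counts scaled to a common library size) correlated with theirs at 0.903 to 0.922, against 0.989 to 0.992 among the other 5. All 9 macrophage identity genes examined had counts in each library, but CaP Zn0.8Mn replicate 1 was at an extreme for each of them. It was the highest library for 5 (Csf1r, Adgre1, Cd14, Ptprc and Fcgr1), with Csf1r at 1598 CPM there, and the lowest for 4 (Itgam, Cd68, Lyz2 and Spi1), with the lysozyme gene Lyz2 at 5861 CPM there and up to 14549 CPM elsewhere. The summed level, most of it Lyz2, was 9607 CPM there, against 11104 to 16752 CPM. Of 6 osteoblast markers Runx2 made up nearly the whole sum of 7.53 to 17.4 CPM, with Ibsp at 0. Of 5 fibroblast markers only Pdgfrb had counts, at most 17 and in that library. Of 6 epithelial and endothelial markers Epcam, Krt8, Cdh1 and Cdh5 were at 0 throughout, while Pecam1 had up to 4 and Kdr up to 5 counts per library. The part of RNA quality or of other cells in the values of CaP Zn0.8Mn replicate 1 was not tested.

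Levels of different genes were compared as the authors' FPKM, in which fragments are scaled to transcript length and library size. Over the 5 libraries other than CaP Zn0.8Mn replicate 1, the ER pump Atp2a2 was the most abundant member, with a median of 65.5 FPKM and a range of 65.1 to 68.2. Atp2a3, the SERCA gene typical of blood cells, followed at a median of 27.5 FPKM. Atp2b1, the widely expressed plasma membrane pump, had a median of 13.4 FPKM and Slc20a1, which encodes PiT-1, 13.3 FPKM, and the ranges of this pair overlapped. Xpr1 came next at 8.26 FPKM. The ER calcium sensors Stim1 and Stim2 had medians of 4.93 and 4.53 FPKM, with overlapping ranges. Slc20a2, which encodes PiT-2, and the channel gene Orai1 were lowest, at medians of 3.81 and 3.64 FPKM, and again their ranges overlapped. The other neighbours in this order did not overlap over those 5 libraries. In CaP Zn0.8Mn replicate 1 the order differed: Atp2a3 stood at 59.2 FPKM there, close under the 69.4 FPKM of Atp2a2, and Orai1 at 8.78 FPKM was above Stim1 at 5.95 FPKM.

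**Figure D1:**
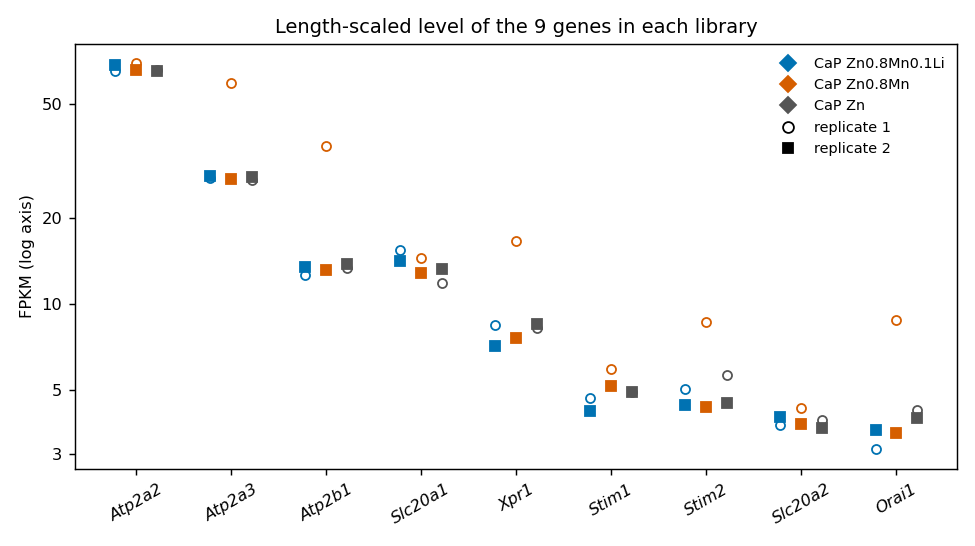
Level of each of the 9 genes in each of the 6 libraries, in FPKM on a log axis, with genes ordered by their median over the 5 libraries other than CaP Zn0.8Mn replicate 1. The open orange circles are that library, and for Atp2a3, Atp2b1, Xpr1, Stim2 and Orai1 they lie far above the other points, for example at 35.6 FPKM for Atp2b1 against 12.6 to 13.8 FPKM.

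Among the pumps, Atp2b1 (ENSMUSG00000019943, GRCm38 chromosome 10, 98914406 to 99026143, plus strand) read 194 and 207 CPM on CaP Zn0.8Mn0.1Li, 556 and 200 CPM on CaP Zn0.8Mn, and 206 and 212 CPM on CaP Zn. CaP Zn0.8Mn replicate 1 was 2.73 times the mean of the other 5, and the highest of those 5 was 1.09 times the lowest. Atp2a3 (ENSMUSG00000020788, chromosome 11, 72961169 to 72993044, plus strand) read 146 and 149 CPM on CaP Zn0.8Mn0.1Li, 321 and 145 CPM on CaP Zn0.8Mn, and 145 and 148 CPM on CaP Zn. Its coefficient of variation over the 5 other libraries was 1.10%, the smallest among the 9 genes. The median was 9.08% over all tested genes and 7.28% over those of at least 5 CPM. For Atp2a3, CaP Zn0.8Mn replicate 1 was 2.19 times the mean of the other 5 libraries. Atp2a2 (ENSMUSG00000029467, chromosome 5, 122453513 to 122502225, minus strand) read 398 and 419 CPM on CaP Zn0.8Mn0.1Li, 433 and 403 CPM on CaP Zn0.8Mn, and 403 and 401 CPM on CaP Zn. This ER pump thus read nearly alike in all 6 libraries, CaP Zn0.8Mn replicate 1 being 1.07 times the mean of the rest, while the other SERCA gene was more than 2-fold higher there. In bulk RNA, fewer cells of a type and less RNA per cell cannot be told apart, here and in every value that follows.

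**Figure D2:**
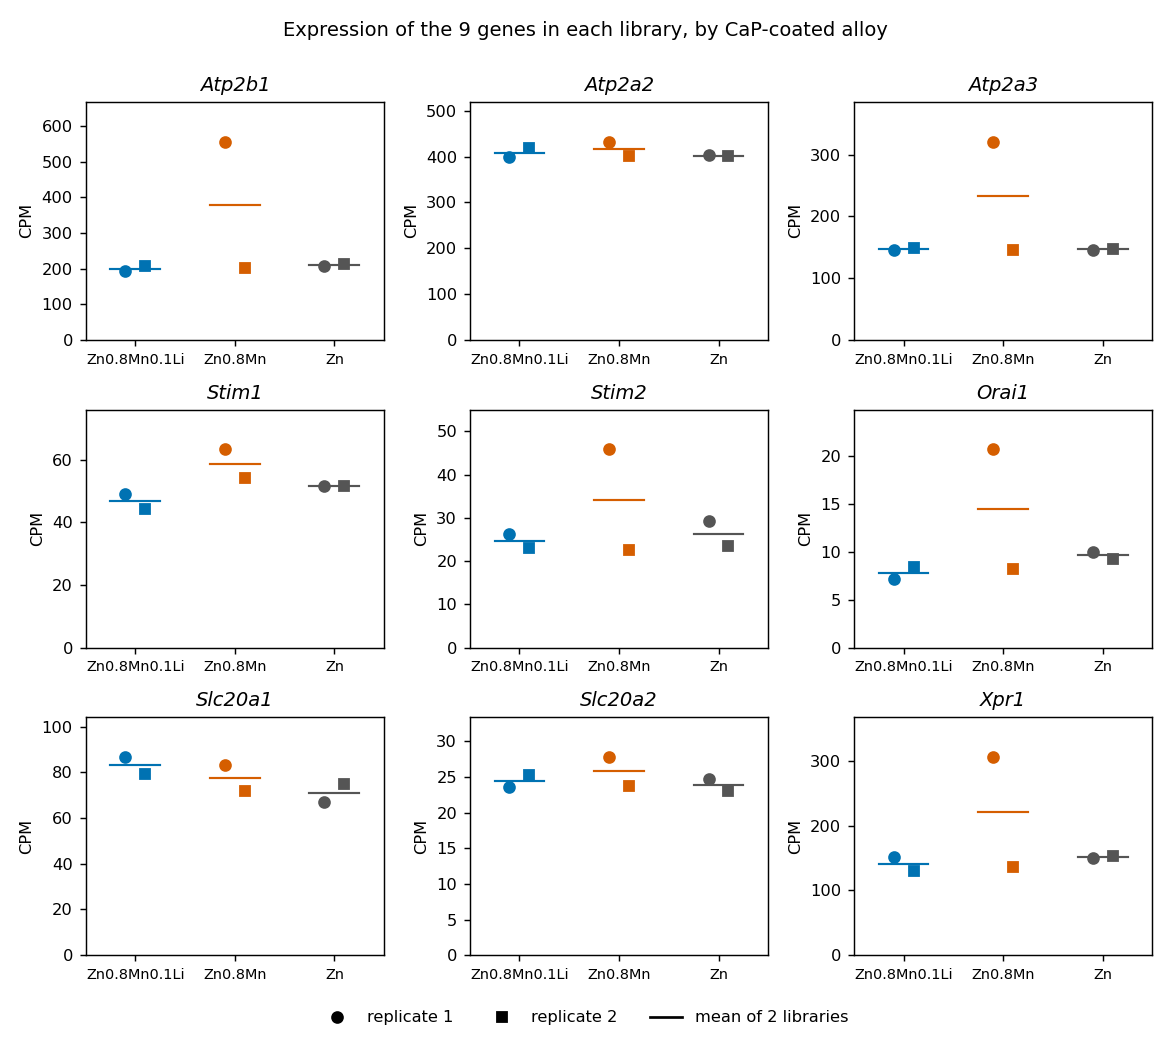
Expression of the 9 genes in CPM (linear axes from 0), with 1 panel per gene, groups in the order CaP Zn0.8Mn0.1Li, CaP Zn0.8Mn and CaP Zn, circles for replicate 1, squares for replicate 2 and a line at the mean of the 2 libraries. In the Atp2b1, Atp2a3, Stim2, Orai1 and Xpr1 panels the mean of CaP Zn0.8Mn falls between 1 high circle and 1 square level with the other alloys.

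For store-operated entry, Stim1 (ENSMUSG00000030987, chromosome 7, 102267806 to 102437319, plus strand) and Stim2 (ENSMUSG00000039156, chromosome 5, 53998499 to 54121057, plus strand) encode the sensors, of which STIM2 is known to respond to smaller losses of ER calcium. Stim1 read 49.1 and 44.3 CPM on CaP Zn0.8Mn0.1Li, 63.4 and 54.0 CPM on CaP Zn0.8Mn, and 51.7 and 51.6 CPM on CaP Zn. The 3 alloys did not overlap for this gene: both CaP Zn0.8Mn0.1Li libraries were below both CaP Zn libraries, and both CaP Zn0.8Mn libraries above them. Taken by pair, 16.8% of tested genes were lower without overlap on CaP Zn0.8Mn0.1Li than on CaP Zn. For CaP Zn0.8Mn above CaP Zn the share was 12.5%, and for CaP Zn0.8Mn0.1Li below CaP Zn0.8Mn 17.5%. The share with all 3 alloys apart in this order was not counted. Stim2 read 26.2 and 23.1 CPM on CaP Zn0.8Mn0.1Li, 45.9 and 22.6 CPM on CaP Zn0.8Mn, and 29.3 and 23.4 CPM on CaP Zn, so that CaP Zn0.8Mn held both the highest and the lowest library. Orai1 (ENSMUSG00000049686, chromosome 5, 123015074 to 123030456, plus strand), the pore subunit of the channel, read 7.18 and 8.44 CPM on CaP Zn0.8Mn0.1Li, 20.7 and 8.21 CPM on CaP Zn0.8Mn, and 9.95 and 9.28 CPM on CaP Zn. It had the fewest reads of the 9 genes, 119 to 313 counts per library, and varied most among the 5 other libraries, by 12.3% (coefficient of variation).

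The promoters of the sensor pair are shown because the 2 genes differed in CaP Zn0.8Mn replicate 1, Stim2 at 1.84 and Stim1 at 1.26 times the mean of the other libraries. Each is the 250 bases before the RefSeq start in GRCm38.p6, plus strand, at chr5:53998273-53998522 for Stim2 and chr7:102267569-102267818 for Stim1, with capitals marking GC boxes (GGGCGG, or CCGCCC on the other strand), the motif bound by Sp1-family factors.
Stim2: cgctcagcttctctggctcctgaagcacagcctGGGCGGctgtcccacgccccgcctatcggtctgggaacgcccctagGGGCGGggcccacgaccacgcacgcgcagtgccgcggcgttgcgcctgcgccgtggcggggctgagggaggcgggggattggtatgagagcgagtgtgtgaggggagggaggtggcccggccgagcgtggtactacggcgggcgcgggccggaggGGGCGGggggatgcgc
Stim1: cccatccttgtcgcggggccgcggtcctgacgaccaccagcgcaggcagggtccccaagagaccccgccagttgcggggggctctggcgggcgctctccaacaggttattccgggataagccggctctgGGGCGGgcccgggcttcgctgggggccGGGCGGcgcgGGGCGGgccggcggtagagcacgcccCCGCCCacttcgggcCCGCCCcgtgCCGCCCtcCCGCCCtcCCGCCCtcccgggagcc
The Stim2 window holds 3 GC boxes and 30 CG dinucleotides, and the Stim1 window 8 and 31. Both are rich in CG, against a median of 6 CG dinucleotides over 32536 RefSeq promoters searched in the same way.

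Both phosphate importers read close to the other libraries in CaP Zn0.8Mn replicate 1, and the exporter did not. Slc20a1 (ENSMUSG00000027397, chromosome 2, 129198764 to 129211616, plus strand) read 86.8 and 79.4 CPM on CaP Zn0.8Mn0.1Li, 83.3 and 71.8 CPM on CaP Zn0.8Mn, and 66.8 and 74.8 CPM on CaP Zn. It was the 1 member for which CaP Zn0.8Mn replicate 1 lay inside the range of the other 5 libraries, and both CaP Zn0.8Mn0.1Li libraries lay above both CaP Zn libraries. Slc20a2 (ENSMUSG00000037656, chromosome 8, 22476788 to 22569612, plus strand) read 23.6 and 25.3 CPM on CaP Zn0.8Mn0.1Li, 27.8 and 23.8 CPM on CaP Zn0.8Mn, and 24.7 and 23.1 CPM on CaP Zn, with CaP Zn0.8Mn replicate 1 at 1.15 times the mean of the rest. Xpr1 (ENSMUSG00000026469, chromosome 1, 155275701 to 155417415, minus strand) read 152 and 129 CPM on CaP Zn0.8Mn0.1Li, 306 and 137 CPM on CaP Zn0.8Mn, and 149 and 154 CPM on CaP Zn. Its reading in CaP Zn0.8Mn replicate 1 was 2.12 times the mean of the other 5.

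For the same contrast between an importer and the exporter, the promoters of Slc20a1 (first of 2 RefSeq starts, chr2:129198523-129198772, plus strand) and Xpr1 (chr1:155417445-155417694, minus strand) are given as above, each printed 5′ to 3′ on its gene's strand.
Slc20a1: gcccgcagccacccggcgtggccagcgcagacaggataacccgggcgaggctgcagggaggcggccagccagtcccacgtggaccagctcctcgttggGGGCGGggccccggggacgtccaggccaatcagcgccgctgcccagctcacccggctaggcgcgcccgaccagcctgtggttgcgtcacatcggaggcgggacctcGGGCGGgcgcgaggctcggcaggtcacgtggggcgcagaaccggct
Xpr1: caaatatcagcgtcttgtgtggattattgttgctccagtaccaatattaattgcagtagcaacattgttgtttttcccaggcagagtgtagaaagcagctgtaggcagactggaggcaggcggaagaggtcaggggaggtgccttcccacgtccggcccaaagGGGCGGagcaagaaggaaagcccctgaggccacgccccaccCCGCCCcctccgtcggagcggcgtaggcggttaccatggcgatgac
Each holds 2 GC boxes, with 29 CG dinucleotides in Slc20a1 and 13 in Xpr1. RefSeq promoters were matched for 7 of the 9 genes, in 9 windows. A GC box was present in 9 of 9 windows, against 33.0% of all promoters, and a CCAAT box (CCAAT or ATTGG) in 4 of 9, against 33.8%. The PU.1 core GAGGAA (or TTCCTC) was in 0 of 9 windows and 23.4% of all promoters, and TATAAA (or TTTATA) in 0 of 9 and 12.3%. Since every window held a GC box, its presence cannot separate genes that stood high in CaP Zn0.8Mn replicate 1 from those that did not. A match of letters is no evidence of binding.

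Set against the mean of the other 5 libraries, 5 of the 9 genes were more than 1.5-fold higher in CaP Zn0.8Mn replicate 1, where 27.1% of the 13156 tested genes were (23.8% of the 9765 tested genes of at least 5 CPM). These were Atp2b1, Orai1, Atp2a3, Xpr1 and Stim2. More than 2-fold higher were 4 of the 9, against 15.4% of tested genes, and 8 of the 9 lay above all other libraries, against 42% of tested genes. Lower values were not seen: 0 of the 9 lay below all others (41.9% of tested genes), 0 were more than 1.5-fold lower (28.8%) and 0 more than 2-fold lower (18.2%). These counts describe 1 library and carry no test, and the genes were chosen with results of these libraries known. In the same library 7.88% of counts were mitochondrial, and the part of that difference in these values was not tested.

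**Figure D3:**
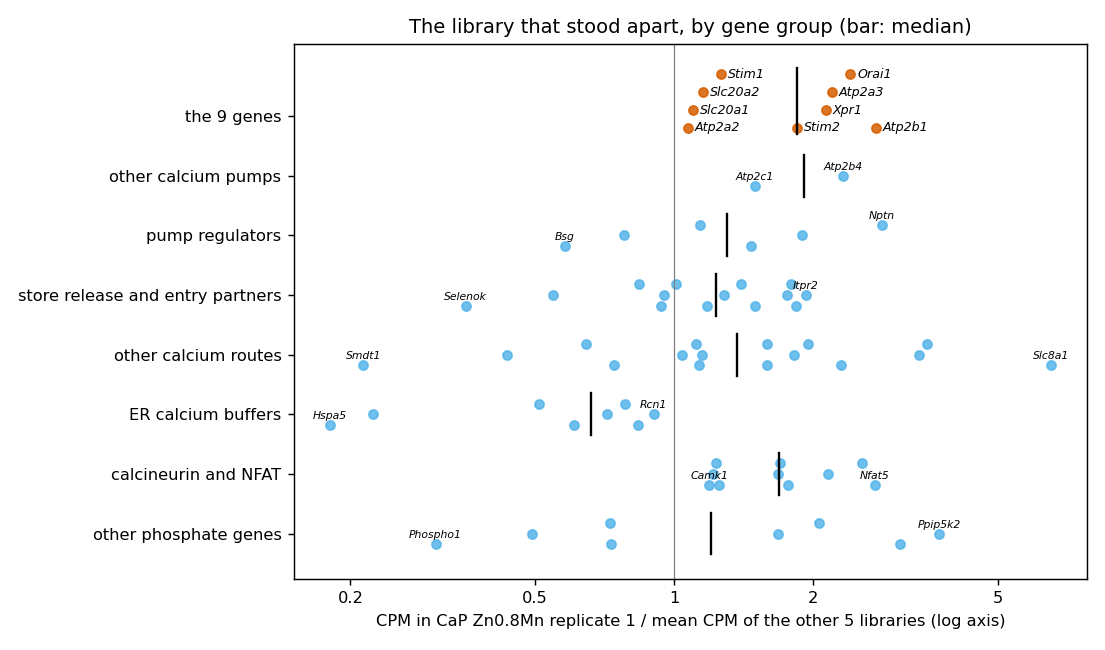
Ratio of the CPM in CaP Zn0.8Mn replicate 1 to the mean CPM of the other 5 libraries (log axis) for the 9 genes and for 7 lists of related genes, with 1 point per tested gene and a bar at each median. The 9 genes lie between 1.07 (Atp2a2) and 2.73 (Atp2b1), and the ER calcium buffers lie below 1, down to 0.181 for Hspa5.

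Within paralogue pairs, shares of reads do not depend on how libraries are scaled. Atp2a3 made up 42.6% of the reads of the 2 SERCA genes in CaP Zn0.8Mn replicate 1 (Wilson 95% interval 41.7% to 43.5%), against 26.2% to 27.0% in the other 5 libraries. Stim2 made up 42.0% of the reads of the STIM pair there (39.6% to 44.4%), against 29.5% to 36.2% elsewhere. Slc20a1 took 75.0% of the reads of the PiT pair there (72.8% to 77.0%), inside the 73.0% to 78.6% of the other libraries. The first and second pair thus shifted toward Atp2a3 and Stim2 in that library, and the PiT pair stayed within its range. These intervals cover counting error alone, and shares of reads also depend on transcript length.

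**Figure D4:**
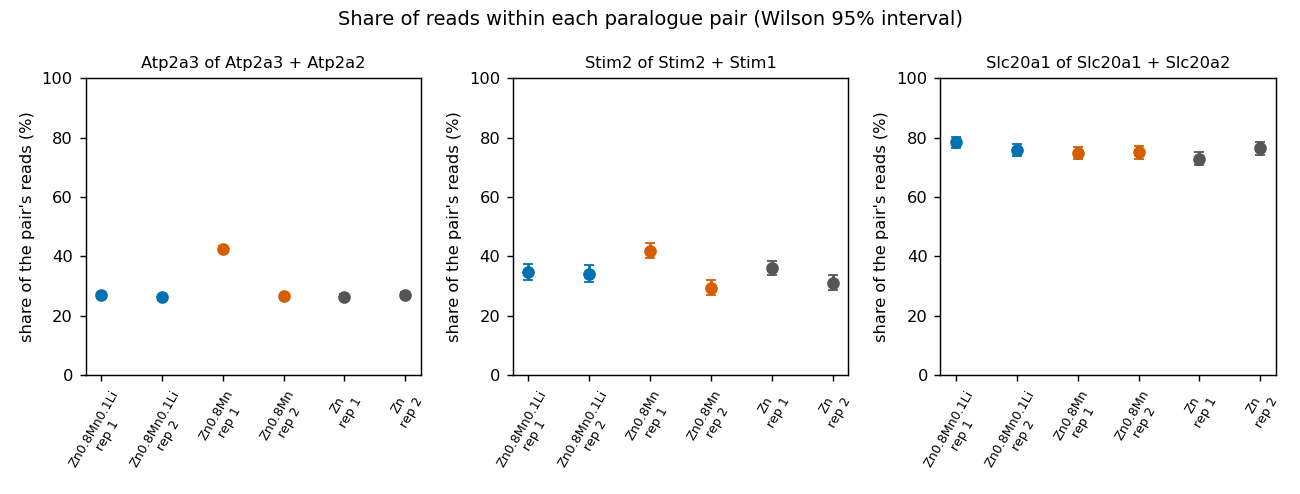
Share of the reads of each paralogue pair that fell on Atp2a3, Stim2 or Slc20a1, in percent, in each of the 6 libraries, with Wilson 95% intervals. Atp2a3 stands at 42.6% in CaP Zn0.8Mn replicate 1 against 26.2% to 27.0% elsewhere, and Slc20a1 shows no such step.

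The lithium-containing alloy was set against CaP Zn to ask what manganese and lithium did together. None of the 9 genes passed an adjusted p of 0.05 (edgeR's quasi-likelihood test, Benjamini-Hochberg over 13156 genes; adjusted p = 1.00 for all 9), and neither did any tested gene (0%). At an unadjusted p under 0.05 there were 0 of the 9 and 29 tested genes (0.22%), and DESeq2 called 0 genes (0%). Without CaP Zn0.8Mn replicate 1, whose spread enters the shared estimate, edgeR again called 0 of the 9 and 0 of 13156 genes (0%). DESeq2 called 12 of the 1174 genes to which it then gave an adjusted p (1.02%), and 0 of the 9, although 7 of the 9 got no adjusted p.

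On CaP Zn0.8Mn0.1Li the phosphate importer Slc20a1 averaged 83.1 ± 5.18 CPM, against 70.8 ± 5.62 CPM on CaP Zn (SD, n = 2 each). Its log2 fold change without CaP Zn0.8Mn replicate 1 was 0.23 (SE 0.092, 95% interval 0.036 to 0.43), with an unadjusted p of 0.0234 and an adjusted p of 0.967 in edgeR's test. It was the 1 member with an unadjusted p under 0.05 (660 tested genes, 5.02%, had one), and with all 6 libraries its unadjusted edgeR p was 0.249. Libraries of the 2 alloys did not overlap, with CaP Zn0.8Mn0.1Li higher, for 1 of the 9, Slc20a1 (16.7% of tested genes). They did not overlap, with CaP Zn0.8Mn0.1Li lower, for 2 of the 9, Stim1 and Orai1 (16.8%). Orai1 averaged 7.81 ± 0.886 CPM on CaP Zn0.8Mn0.1Li, against 9.61 ± 0.475 CPM on CaP Zn, a log2 fold change of -0.30 (SE 0.46 with 6 libraries; SE 0.19, interval -0.70 to 0.097, without CaP Zn0.8Mn replicate 1). Stim1 averaged 46.7 ± 3.40 CPM, against 51.7 ± 0.0726 CPM, a log2 fold change of -0.15 (SE 0.18 with 6 libraries and 0.096 without that library). Of the 9 genes, 4 were higher and 5 lower on CaP Zn0.8Mn0.1Li, with a median log2 fold change of -0.061, where 6581 of the 13156 tested genes were higher.

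**Figure D5:**
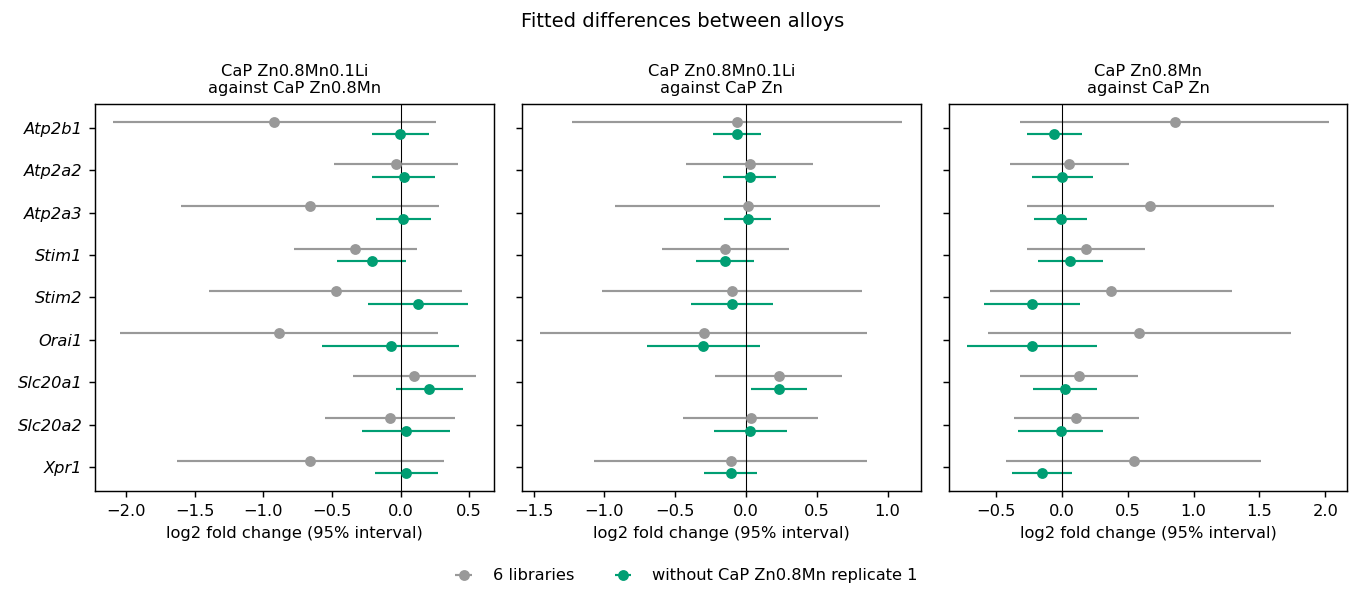
Fitted log2 fold change of each gene in the 3 comparisons, with 95% intervals, from all 6 libraries (grey) and without CaP Zn0.8Mn replicate 1 (green). Leaving that library out narrows the intervals, moves the value of Atp2b1 for CaP Zn0.8Mn relative to CaP Zn to -0.059, against 0.86 with 6 libraries, and leaves the interval of Slc20a1 for CaP Zn0.8Mn0.1Li relative to CaP Zn above 0.

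CaP Zn0.8Mn was set against CaP Zn for the effect of manganese in the alloy. With 6 libraries all 9 genes were higher on CaP Zn0.8Mn (50.5% of tested genes were), with a median log2 fold change of 0.38, and 0 of the 9 and 0 of 13156 genes (0%) were called. Adjusted p values lay between 0.773 and 0.897 in edgeR's test, 0 of the 9 had an unadjusted p under 0.05 (1.57% of tested genes did), and DESeq2 called 1 gene (0.00426%), not a member. The largest value was that of Atp2b1, 378 ± 252 CPM on CaP Zn0.8Mn against 209 ± 4.05 CPM on CaP Zn (SD, n = 2 each), a log2 fold change of 0.86 (SE 0.47, 95% interval -0.31 to 2.03). Without CaP Zn0.8Mn replicate 1 the median was -0.010, 3 genes were higher and 6 lower, and the value of Atp2b1 was -0.059 (SE 0.098), with adjusted p values of 0.967 to 0.998 in edgeR's test and 2 of 13156 genes called (0.0152%), neither a member. DESeq2 called 5 genes on those libraries (0.0221%) and again 0 of the 9. With the other CaP Zn0.8Mn library left out in its place, edgeR called 6 of the 9 genes higher, namely Atp2b1, Atp2a3, Stim1, Stim2, Orai1 and Xpr1, in a fit that called 59.3% of all tested genes. In that fit the lone CaP Zn0.8Mn library is assumed to vary like the other groups, and the log2 fold changes of the 6 ran from 0.28 for Stim1 (edgeR adjusted p = 0.0493) to 1.40 for Atp2b1 (edgeR adjusted p = 2.15e-08). Stim1 was the 1 gene of the 9 whose libraries did not overlap between these alloys, with CaP Zn0.8Mn higher (12.5% of tested genes), and 0 of the 9 did so with CaP Zn0.8Mn lower (12.8%). Its log2 fold change was 0.18 (SE 0.18) with 6 libraries and 0.065 (SE 0.12) without CaP Zn0.8Mn replicate 1.

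CaP Zn0.8Mn0.1Li was set against CaP Zn0.8Mn for the effect of adding lithium. These comparisons share libraries, so the values mirror those above: with 6 libraries 8 of the 9 genes were lower on CaP Zn0.8Mn0.1Li and 1, Slc20a1, was higher (0.099, SE 0.18), with a median log2 fold change of -0.47. No member and 0 of 13156 genes (0%) were called, with adjusted p values of 0.680 to 0.933 for the members in edgeR's test, 0 of the 9 at an unadjusted p under 0.05 (2.4% of tested genes), and 1 gene called by DESeq2 (0.00426%), not a member. Without CaP Zn0.8Mn replicate 1, 6 genes were higher and 3 lower, with a median of 0.022, and 0 of the 9 but 2 of 13156 genes (0.0152%) were called by edgeR and 0 of the 9 but 3 genes (0.0133%) by DESeq2. Stim1 was lower on CaP Zn0.8Mn0.1Li without overlap, as the 1 such member (17.5% of tested genes), and 0 of the 9 were higher without overlap (17.1%). Its log2 fold change was -0.33 (SE 0.18) with 6 libraries and -0.21 (SE 0.12) without CaP Zn0.8Mn replicate 1. Without CaP Zn0.8Mn replicate 2, 6 of the 9 were called lower, where 61.5% of all tested genes were called, and the largest value was -1.47 for Atp2b1 (edgeR adjusted p = 1.11e-08).

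A p above the threshold does not show that the alloys acted alike, and the intervals say how large a difference could have been missed. With all 6 libraries, 8 of the 27 intervals (9 genes in 3 comparisons) lay wholly within a 1.5-fold change in either direction, 2 of them among the 9 for CaP Zn0.8Mn0.1Li relative to CaP Zn. Without CaP Zn0.8Mn replicate 1, 8 of those 9 did, all but that of Orai1. The other 18 intervals then rest on a single CaP Zn0.8Mn library that is assumed to vary like the other groups, so they do not bound what could have been missed on that alloy, and 16 of them lay within 1.5-fold. For Atp2a3 the ratio of CaP Zn0.8Mn0.1Li to CaP Zn was 1.01 (95% interval 0.900 to 1.13), and for Atp2a2 it was 1.02 (0.892 to 1.16), both without CaP Zn0.8Mn replicate 1.

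Other genes of calcium and phosphate handling were read from 7 lists of 79 names, of which 77 were in the files and 64 were tested. None was called in any comparison, with or without CaP Zn0.8Mn replicate 1. At an unadjusted p under 0.05 there were 0 in each comparison with 6 libraries. Without that library there were 6 for CaP Zn0.8Mn0.1Li relative to CaP Zn, 5 for CaP Zn0.8Mn relative to CaP Zn and 0 for CaP Zn0.8Mn0.1Li relative to CaP Zn0.8Mn, beside 5.02%, 4.33% and 3.16% of all tested genes. In CaP Zn0.8Mn replicate 1, 25 of the 64 were more than 1.5-fold higher and 12 more than 1.5-fold lower. For CaP Zn0.8Mn0.1Li relative to CaP Zn, log2 fold changes of single list genes are given without that library, with SEs of 0.081 to 0.33 over the 26 genes named by rule. With 6 libraries these values moved by at most 0.016, but their SEs were 0.17 to 0.87 and each edgeR adjusted p was 1.00.

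Of 6 other calcium pump genes 2 were tested, and the rest had at most 5 counts in a library. The plasma membrane pump Atp2b4 read 31.0 and 27.5 CPM on CaP Zn0.8Mn0.1Li, 72.2 and 32.1 CPM on CaP Zn0.8Mn, and 31.8 and 33.4 CPM on CaP Zn, the same shape as Atp2b1. The Golgi pump Atp2c1 read 98.3 and 102 CPM on CaP Zn0.8Mn0.1Li, 147 and 92.3 CPM on CaP Zn0.8Mn, and 98.5 and 102 CPM on CaP Zn. Among 6 tested pump regulators, 4 were higher and 2 lower on CaP Zn0.8Mn0.1Li than on CaP Zn. Calm2 and Calm3 encode calmodulin, which relieves the autoinhibition of plasma membrane pumps, and their log2 fold changes were -0.12 (SE 0.087) and 0.12 (SE 0.083) without CaP Zn0.8Mn replicate 1. Tmx1, a thiol oxidoreductase of the ER, was at 0.029 (SE 0.11) in the same fit. The SERCA inhibitor genes Pln and Sln had 0 counts in all libraries.

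Of 14 tested partners of store release and entry, 10 were lower and 4 higher on CaP Zn0.8Mn0.1Li than on CaP Zn without CaP Zn0.8Mn replicate 1, with a median log2 fold change of -0.046. The channel gene Orai3 read 15.9 and 19.3 CPM on CaP Zn0.8Mn0.1Li, against 23.8 and 18.8 CPM on CaP Zn (-0.28, SE 0.15), and overlapped. Tmem110, the STIM-activating enhancer, read 25.8 and 27.8 CPM on CaP Zn0.8Mn0.1Li, against 30.7 and 32.0 CPM on CaP Zn (-0.23, SE 0.11). The calcium release channel gene Itpr1 was at 0.0081 (SE 0.086) and the protease gene Sppl3 at -0.074 (SE 0.10) in the same fit.

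Of 16 tested genes of other calcium routes, 10 were higher and 6 lower on CaP Zn0.8Mn0.1Li than on CaP Zn, with a median of 0.040 without CaP Zn0.8Mn replicate 1. Slc8a1, the plasma membrane sodium-calcium exchanger, had the largest ratio of the 64 in that library, 6.53, with 22.8 CPM there and 1.86 to 4.25 CPM elsewhere. P2rx7, an ATP-gated cation channel, read 37.3 CPM there and 8.45 to 12.2 CPM elsewhere. The lysosomal channel gene Tpcn2 read 26.4 CPM there and 11.8 to 15.2 CPM elsewhere. Mcu, the pore of the mitochondrial uniporter, read 38.6 CPM there and 21.8 to 26.9 CPM elsewhere, as 1 of 8 genes of this list that were more than 1.5-fold higher in CaP Zn0.8Mn replicate 1. A further 3 were more than 1.5-fold lower there. Smdt1, another uniporter subunit gene, read 32.1 CPM there and 133 to 159 CPM elsewhere. Slc8b1, the mitochondrial sodium-calcium exchanger, read 29.0 CPM there and 60.2 to 71.0 CPM elsewhere, and Mcoln1, a lysosomal cation channel, 40.6 CPM there and 59.3 to 71.5 CPM elsewhere. The list thus had no single direction in that library, and neither did the uniporter genes.

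The 8 ER calcium buffers were all tested and stood the other way. In CaP Zn0.8Mn replicate 1, 4 of the 8 were more than 1.5-fold lower and 0 more than 1.5-fold higher, with Hspa5, the ER chaperone BiP, at 1001 CPM against 4248 to 6031 CPM elsewhere. Calr, the buffer calreticulin, read 423 CPM there and 1397 to 2121 CPM elsewhere. For CaP Zn0.8Mn relative to CaP Zn, 7 of the 8 were lower with 6 libraries (median -0.16), and 7 of the 8 were higher without that library (median 0.15). On CaP Zn0.8Mn0.1Li 7 of the 8 were higher than on CaP Zn, with a median of 0.12 in both fits. Libraries of these alloys did not overlap, with CaP Zn0.8Mn0.1Li higher, for 4 of the 8 (16.7% of tested genes). With CaP Zn0.8Mn0.1Li lower, 0 of the 8 were without overlap (16.8%). Without CaP Zn0.8Mn replicate 1, Calr was at 0.32 (SE 0.15) and Calu, an EF-hand protein of the secretory pathway, at 0.17 (SE 0.081). Sdf4, a Golgi calcium binder, was at 0.080 (SE 0.088) in the same fit. In CaP Zn replicate 1, Hspa5 at 4248 CPM and Calr at 1397 CPM were lower than in every other library except CaP Zn0.8Mn replicate 1.

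Calcineurin and the NFAT factors it activates act downstream of store-operated entry. The list of 10 tested genes also held Nfat5 and the calmodulin-dependent kinase genes Camk1 and Camk2d. Its counts are thus no reading of that route alone. On CaP Zn0.8Mn0.1Li 8 of the 10 were lower and 2 higher than on CaP Zn (median -0.065 without CaP Zn0.8Mn replicate 1). In that fit 3 had an unadjusted edgeR p under 0.05, beside 5.02% of all tested genes, and with 6 libraries 0 of the 10 did. Ppp3ca, a catalytic subunit of calcineurin, read 59.2 and 63.0 CPM on CaP Zn0.8Mn0.1Li, against 70.2 and 74.7 CPM on CaP Zn (-0.25, SE 0.089; edgeR adjusted p = 0.943). Nfatc1, the NFAT factor that drives osteoclast formation, read 81.4 and 78.9 CPM, against 90.4 and 96.0 CPM on CaP Zn (-0.22, SE 0.084; edgeR adjusted p = 0.943). Rcan1, a calcineurin regulator whose transcription NFAT induces, read 33.9 and 30.8 CPM, against 35.2 and 43.2 CPM (-0.27, SE 0.12; edgeR adjusted p = 0.967). None of the 3 passed the threshold. The libraries of the 2 alloys did not overlap, with CaP Zn0.8Mn0.1Li lower, for 4 of the 10 genes, these 3 and Nfatc2, where 16.8% of tested genes did so. For CaP Zn0.8Mn relative to CaP Zn, 9 of the 10 were higher with 6 libraries (median 0.31), and 7 of the 10 lower without CaP Zn0.8Mn replicate 1 (median -0.14), among them Nfatc2 at -0.27 (SE 0.15), against 0.50 (SE 0.42) with 6 libraries.

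Of 13 other phosphate genes 8 were tested, and the sodium-phosphate cotransporter genes Slc34a1 and Slc34a2 of kidney and other epithelia had 0 counts. Ank encodes a membrane protein that lets out ATP, a source of the mineralization inhibitor pyrophosphate. It read 159 and 141 CPM on CaP Zn0.8Mn0.1Li, 504 and 154 CPM on CaP Zn0.8Mn, and 184 and 184 CPM on CaP Zn. Without CaP Zn0.8Mn replicate 1 its log2 fold change for CaP Zn0.8Mn0.1Li relative to CaP Zn was -0.30 (SE 0.083; edgeR adjusted p = 0.596), so it was not called. Ppip5k2, Ip6k1 and Ip6k2 encode kinases that make inositol pyrophosphates, which bind the SPX domain of XPR1. Ppip5k2 read 130 CPM in CaP Zn0.8Mn replicate 1 against 30.2 to 45.4 CPM elsewhere, while Ip6k2 read 14.5 CPM there against 25.4 to 32.2 CPM. Ip6k1 read 57.1 CPM there against 72.1 to 88.1 CPM, so the 3 kinase genes did not share a direction in that library.

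The genes most like 4 of the members were ranked by Pearson's r of log2 CPM over the 6 libraries among 9764 other genes, as a description in which CaP Zn0.8Mn replicate 1 weighs heavily. For Atp2b1 they included Piezo1 and Sema5a (r = 0.999 for each; 0.958 and 0.909 over the 5 other libraries), and 359 genes exceeded 0.99. For Xpr1 they were Slc38a2, Akap13 and Csnk1a1, each at 0.999 (0.982, 0.978 and 0.970 over the other 5), and 116 genes exceeded 0.99. For Stim1 they were Tapt1 (0.992; 0.977 over the other 5), Psat1 and Nkapd1. For Slc20a1 they were Papolg (0.955; 0.945 over the other 5), Cog2 and Rps26-ps1, and 0 genes exceeded 0.99.

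Some reads of 4 members could belong to genes on the opposite strand, since the sources used here do not state whether counting used strand. The largest overlap was that of 9830144P21Rik with Slc20a1, 452 exonic bases or 8.10% of its exons, and that gene had 75 to 139 counts per library against 1111 to 1437 for Slc20a1. Gm4430 overlapped a further 5.02% of the Slc20a1 exons and had 0 to 22 counts. For Slc20a2 with Smim19, Atp2a2 with Gm43361 and Orai1 with Gm2479 the overlap was at most 1.53% of the member's exons. Segments of some members also occur in other genes: Atp2a2 shared 203 exact stretches of 50 bases, many of them overlapping, with Gm30970, which had 1 to 6 counts per library. Atp2b1 shared 151 with Gm29808, which had 0 counts. Apart from genes that overlap a member, only these 2 shared 100 or more stretches. At least 1 stretch was shared with 177 genes by Xpr1, with 60 by Atp2b1 and with 27 by Stim2, and with at most 2 by each other member. The part of such stretches in the counts was not tested.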

How the data were processed

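The authors deposited gene counts and FPKM values for the 6 libraries, made from polyadenylated RNA with a TruSeq kit, per the labels' protocols. Aligner, counting tool and strandedness: not given in the sources used here. Gene positions matched GRCm38 (GENCODE M21) for 98.3% of IDs and for all 9 genes and are given in that build, although mm9 is named in the submitters' processing notes. Counts were tested with edgeR 4.0.16 in R 4.3.3 (robust quasi-likelihood, TMM, filterByExpr, group means, 3 residual degrees of freedom, two-sided), and a gene was called at a Benjamini-Hochberg adjusted p under 0.05 over 13156 genes. The method was tested on simulated data. CPM used TMM-scaled library sizes, 3 counts being 0.161 to 0.198 CPM. Alternatives were RLE size factors, library totals, DESeq2 1.42.0, no filter, a replicate block, the compared libraries alone, and each library left out. The 9 genes and all lists were chosen with earlier results of these data known. Named per list were at most 4 genes of at least 5 mean CPM with the largest change without CaP Zn0.8Mn replicate 1; markers, genes with 0 counts and extreme ratios were named after their values were seen, and some genes this rule names are not reported here. Replicates differed beyond sampling noise (chi-square per gene at least 5.71). Promoters are from RefSeq (GRCm38.p6).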

Additional observations from a re-analysis of the deposited data

How the results depend on the processing

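No alternative on all 6 libraries, or on all libraries of the compared alloys alone, called a member in any comparison. The latter lacks the remaining alloy, and so CaP Zn0.8Mn replicate 1 for CaP Zn0.8Mn0.1Li over CaP Zn. Of 162 such values for the members, 158 kept sign and side of the threshold. The remaining 4 turned round, all on CaP Zn0.8Mn0.1Li over CaP Zn and near 0. Members' adjusted p was at least 0.664 in these settings, at least 0.914 in those without CaP Zn0.8Mn replicate 1 and at least 0.819 without any other single library except CaP Zn0.8Mn replicate 2 (edgeR or DESeq2). The 4 were Atp2a2 (-0.018), Atp2a3 (-0.031) and Slc20a2 (-0.011) with library totals only, and Atp2a3 (-0.0015) with no filter. Over all tested genes, DESeq2 and the fit with no filter each called 1 gene on CaP Zn0.8Mn0.1Li over CaP Zn0.8Mn and 1 on CaP Zn0.8Mn over CaP Zn, where the fit reported above called 0. With libraries left out, alone or together with DESeq2, library totals or the block, genes called ran from 0 to 8096 on CaP Zn0.8Mn0.1Li over CaP Zn0.8Mn, from 0 to 12 on CaP Zn0.8Mn0.1Li over CaP Zn and from 0 to 7808 on CaP Zn0.8Mn over CaP Zn, and members called from 0 to 6 in the first and last of these and 0 in the other. The highest counts for comparisons that involve CaP Zn0.8Mn came without its replicate 2, and the 12 genes came from DESeq2 without its replicate 1. Of 243 values for members with a library left out, 173 kept their sign and their side of the threshold, some of them at a very different size (Atp2b1 on CaP Zn0.8Mn0.1Li over CaP Zn0.8Mn was -0.0013 without CaP Zn0.8Mn replicate 1, against -0.92 with 6 libraries), 12 passed the threshold (all without CaP Zn0.8Mn replicate 2) and 58 turned round, in 20 of 27 results, whose log2 fold changes ranged as follows. On CaP Zn0.8Mn0.1Li over CaP Zn0.8Mn they ran for Atp2a2 from -0.083 to 0.044, Atp2a3 from -1.12 to 0.044, Atp2b1 from -1.47 to 0.032, Slc20a1 from -0.0032 to 0.23, Slc20a2 from -0.18 to 0.063, Stim2 from -0.90 to 0.15 and Xpr1 from -1.12 to 0.062. On CaP Zn0.8Mn0.1Li over CaP Zn they ran for Atp2a2 from -0.018 to 0.050, Atp2a3 from -0.032 to 0.024, Slc20a2 from -0.021 to 0.082 and Stim2 from -0.25 to 0.072. On CaP Zn0.8Mn over CaP Zn they ran for Atp2a2 from -0.063 to 0.099, Atp2a3 from -0.075 to 1.12, Atp2b1 from -0.12 to 1.40, Orai1 from -0.30 to 1.09, Slc20a1 from -0.042 to 0.23, Slc20a2 from -0.076 to 0.21, Stim1 from -0.0014 to 0.28, Stim2 from -0.30 to 0.79 and Xpr1 from -0.21 to 1.00. The cause of these shifts was not tested. The replicate numbers share only a number in the labels: deviations of same-numbered libraries correlated at 0.263 (CaP Zn0.8Mn and CaP Zn), -0.162 (CaP Zn0.8Mn0.1Li and CaP Zn) and -0.0947 (CaP Zn0.8Mn0.1Li and CaP Zn0.8Mn). With the replicate block, edgeR called 0 genes in each comparison with 6 libraries, and 6, 8 and 6 genes without CaP Zn0.8Mn replicate 1 (CaP Zn0.8Mn0.1Li over CaP Zn0.8Mn, CaP Zn0.8Mn0.1Li over CaP Zn, CaP Zn0.8Mn over CaP Zn), none of them a member. A crossed block on the 4 libraries of CaP Zn0.8Mn0.1Li and CaP Zn, added after the data were seen, called 212 genes. Depth limits Orai1 most, at 119 to 313 counts per library.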
